A study of Mus musculus with 6 samples.

Results

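The 40 genes described here encode the NF-kB transcription factor subunits, the kinases that activate them, the TRAF and other adaptors that link receptors to those kinases, and the proteins that hold the pathway back. They were taken by gene symbol, and each of the 40 was found once among the 24054 rows of the count table. All 40 had enough reads to be tested, Tnip3 through its K5-RANKL libraries. The libraries were made from mouse salivary gland mRNA with a stranded kit, in 2 groups of 3, and each holds tissue pooled from 5 mice. The K5-RANKL group carried K5-rtTA and TetO-RANKL, so that the keratin 5 promoter supplies the activator that, with doxycycline, switches on a transgene for the TNF family cytokine RANKL. The control group was monogenic, and which transgene it carried is not given in the sources used here. Doxycycline was given in food and drinking water to both groups for 2 weeks from an age of 9 weeks, so the controls share the drug. The comparison asks how these transcripts differ once RANKL is made by keratin 5 expressing epithelium.

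NF-kB proteins wait in the cytoplasm and enter the nucleus by a pair of routes. In the canonical route, receptors such as those for TNF and interleukin-1 act through TRAF6 or RIPK1 and the TAK1 kinase. Their target is a kinase complex of IKK-beta, IKK-alpha and NEMO. Chiefly through IKK-beta, this complex marks the inhibitor IkB-alpha for destruction and frees dimers of RelA and p50. In the noncanonical route, used by RANK, the lymphotoxin-beta receptor, CD40 and BAFF receptor, the kinase NIK is released from a TRAF3, TRAF2 and cIAP complex that otherwise degrades it, and acts through IKK-alpha to turn p100 into p52, the partner of RelB. Several inhibitors are themselves NF-kB target genes, and RANKL signalling through this pathway is best known from osteoclasts and from lymph node and mammary development. Release, phosphorylation and processing happen to proteins, so the RNA counts do not measure pathway activity.

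Total counts ran from 13875951 to 17921815 per library. Spt1, a salivary secretory product, made up 28.5 to 35.1% of all counts in controls but 13.9 to 18.5% in K5-RANKL libraries, and all 10 listed acinar markers fell. Tnfsf11, which encodes RANKL, stood at 0.94 to 3.78 CPM (depth-scaled counts, here on library sizes corrected by TMM) in controls and at 701, 404.5 and 723 CPM in K5-RANKL 1, 2 and 3. K5-RANKL 2 was the lowest of its group. Levels and fold changes below are relative to the TMM scale, on which all tested genes had a median of 0.01 (log2 fold change). By library totals alone that median lay at 1.01, and all 40 members were then called higher, as were 83.5% of all genes. In bulk tissue, fewer cells of a type and less RNA per cell cannot be told apart.

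Of the 40 members, 33 rose, 2 fell and 5 did not pass (edgeR quasi-likelihood test, Benjamini-Hochberg adjusted p under 0.05). Among all 14044 genes tested, 66.2% were called, 34.2% higher and 32.1% lower. At least 2-fold rises were seen in 16 members (40%), where 16.9% of all genes rose that far, and 4 members rose at least 8-fold, where the share of all genes was 2.78%. These counts include Tnip3, which passed the count filter through its K5-RANKL libraries. The median log2 fold change of the members was 0.82. The groups did not overlap in 37 members, where the share of all genes was 70.4%. In 33 of them every K5-RANKL library lay above every control (82.5%, against 36.3% of all genes).

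**Figure D1:**
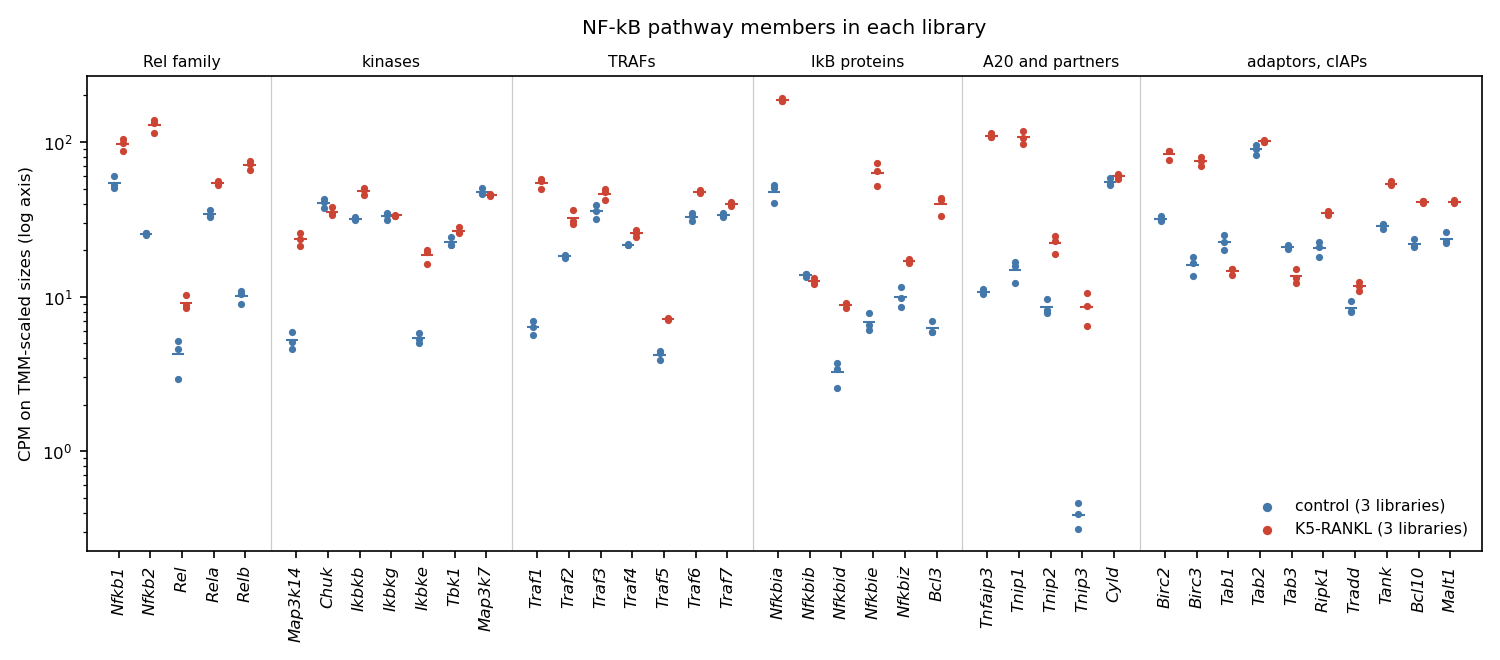
Levels of the 40 members in CPM (TMM scale, log axis), grouped by role; each point is 1 of the 3 control or 3 K5-RANKL libraries and short bars are group means. Relb goes from 8.93 to 10.9 CPM in controls to 65.8 to 75.6 CPM in K5-RANKL libraries, while the groups overlap for Chuk, Ikbkg and Cyld.

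NF-kB dimers bind a sequence of 10 bases known as the kB consensus, and the starts of the members were searched for it. Promoter windows of 300 bases, 250 before and 50 after an annotated start, were taken from RefSeq for GRCm38.p6. They matched 33 of the 40 members, with 47 windows, and did not cover every start. They were searched on both strands, and matches that overlap were kept. At least 1 match was found for 14 of the 33 members (42.4%), compared with 6.42% of the 10952 tested genes that have a window. Counted by window, 36.2% of member windows and 4.51% of all 32851 windows held a match. Of the 15 members with a window that rose at least 2-fold, 9 had a match (60%), against 9.21% of all genes that rose that far. Smaller rises were seen in 12 members with a window, of which 3 had a match, and 2 of 6 members that did not rise had one. A match is a run of letters, not evidence of binding.

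The 110 bases before the start are shown for the 7 members that rose at least 2-fold and have a match there, because they include 2 subunit genes, Nfkb2 and Rel, and feedback inhibitors that the results turn on. Capitals mark the kB match, or a run of overlapping matches.
Nfkb2: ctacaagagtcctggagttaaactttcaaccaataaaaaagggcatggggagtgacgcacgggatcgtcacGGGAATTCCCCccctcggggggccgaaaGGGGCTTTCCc
Rel: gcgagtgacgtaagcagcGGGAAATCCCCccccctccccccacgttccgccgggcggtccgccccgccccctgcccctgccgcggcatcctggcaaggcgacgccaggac
Nfkbia: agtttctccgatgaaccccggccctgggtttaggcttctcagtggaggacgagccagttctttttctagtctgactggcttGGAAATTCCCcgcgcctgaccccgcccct
Nfkbie: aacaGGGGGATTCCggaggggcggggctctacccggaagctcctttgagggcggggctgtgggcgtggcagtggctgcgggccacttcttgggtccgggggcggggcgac
Tnfaip3: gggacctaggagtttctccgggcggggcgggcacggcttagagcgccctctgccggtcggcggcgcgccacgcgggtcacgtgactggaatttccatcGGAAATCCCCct
Tnip1: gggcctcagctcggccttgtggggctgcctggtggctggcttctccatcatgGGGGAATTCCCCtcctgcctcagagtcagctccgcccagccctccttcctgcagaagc
Tnip3: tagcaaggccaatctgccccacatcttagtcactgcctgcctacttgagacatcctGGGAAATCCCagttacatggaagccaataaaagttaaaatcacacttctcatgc
The windows lie at chr19:46304627-46304736 (plus strand) for Nfkb2, chr11:23770970-23771079 (minus strand) for Rel, chr12:55492648-55492757 (minus strand) for Nfkbia and chr17:45555590-45555699 (plus strand) for Nfkbie. Those of the A20 group lie at chr10:19015411-19015520 (minus strand) for Tnfaip3, chr11:54962941-54963050 (minus strand) for Tnip1 and chr6:65590288-65590397 (plus strand) for Tnip3. Nfkb2 is shown at the first of its 3 starts with a window. The gene as annotated begins upstream of these, at 46300994, where no window was searched. The shown window held a palindromic match, GGGAATTCCC, 39 bases before the start and a second match, GGGGCTTTCC, 11 bases before it. The same palindrome lay 57 bases before the start of Tnip1, and GGGAAATCCC preceded the starts of both Rel and Tnip3. In Nfkbia and Tnfaip3 the nearest match began 29 and 12 bases before the start, on the strand opposite to the gene.

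A pair of kinase genes of the noncanonical route is shown for contrast, 1 that rose and 1 that did not pass; neither window of 300 bases holds a match.
Map3k14: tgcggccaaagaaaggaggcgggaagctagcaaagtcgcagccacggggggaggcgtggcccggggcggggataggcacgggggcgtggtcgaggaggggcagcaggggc
Chuk: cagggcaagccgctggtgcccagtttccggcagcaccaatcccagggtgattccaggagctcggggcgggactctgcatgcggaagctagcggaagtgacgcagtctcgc
These windows lie at chr11:103267402-103267511 (minus strand) and chr19:44107478-44107587 (minus strand). Among members that rose at least 2-fold, Map3k14, Ikbke, Traf1, Tnip2, Birc2 and Birc3 had no match in their windows, and no window was used for Relb.

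**Figure D2:**
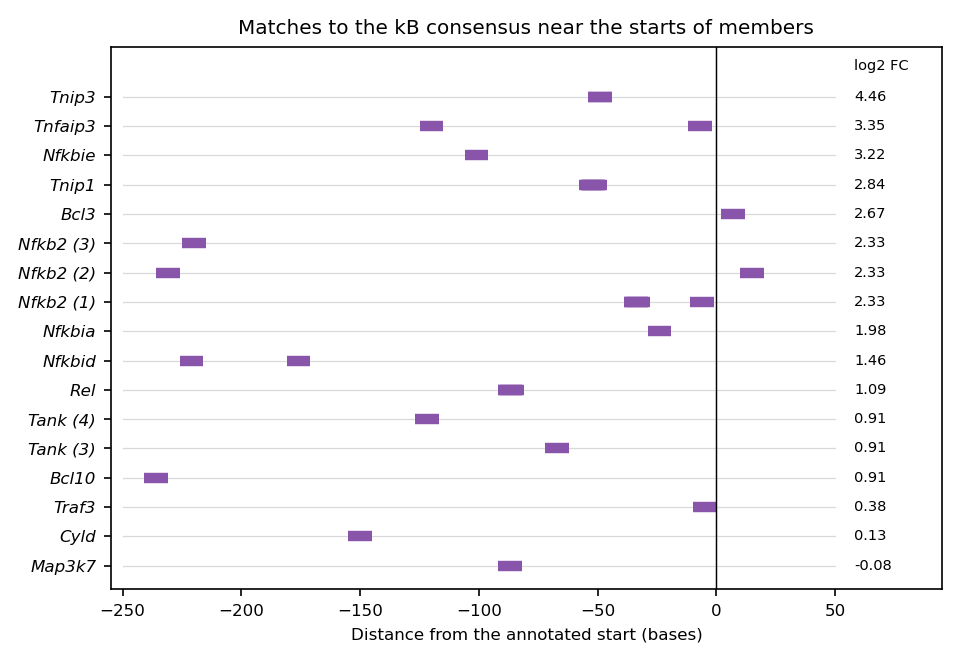
Position of kB consensus matches (purple blocks, to scale) relative to the annotated start (x axis, bases) for the 14 members with a match, with the promoter number in brackets where several promoters of a member hold one; the log2 fold change (FC) of the gene is at the right. Members are ordered by fold change, from 4.46 for Tnip3 down to −0.08 for Map3k7.

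The 5 subunit genes all rose, the noncanonical pair most, where 34.2% of all genes rose. Nfkb2, encoding p100 (chromosome 19 from 46300994 to 46312400 in GRCm38), stood at 24.9, 25.7 and 26.0 CPM in the controls and at 138, 114 and 132 CPM in the K5-RANKL libraries, a log2 rise of 2.33 (SE 0.09, edgeR adjusted p = 5.06e-13). Relb, encoding the partner of p52 (chromosome 7 from 19606217 to 19629438), stood at 8.93, 10.9 and 10.4 CPM and at 75.6, 65.8 and 72.0 CPM, a rise of 2.82 (SE 0.10, edgeR adjusted p = 1.92e-13). K5-RANKL 2 was the lowest of its group for both genes and still lay far above every control. A share of 18.1% of the exonic length of Nfkb2 is overlapped by exons on the opposite strand, 1 of them from Psd, which itself rose from 4.56 to 14.6 CPM; the strand setting of the counting is not given in the sources used here.

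The fold changes of the canonical subunit genes were smaller. Nfkb1, encoding p105, the precursor of p50 (chromosome 3 from 135584655 to 135691969), stood at 52.5, 50.3 and 59.9 CPM in controls and at 105, 87.1 and 98.8 CPM in K5-RANKL libraries, and rose by 0.83 (SE 0.09, edgeR adjusted p = 2.08e-07). Rela, encoding the main activating subunit (chromosome 19 from 5637442 to 5648134), went from 32.8, 36.4 and 33.1 CPM to 55.8, 54.2 and 52.7 CPM, a rise of 0.67 (SE 0.08, edgeR adjusted p = 6.28e-07). Neither pair of groups overlapped. Rel, encoding c-Rel, the subunit most typical of lymphocytes (chromosome 11 from 23736847 to 23770969), was the lowest of the 5, at 2.95, 4.61 and 5.16 CPM in controls against 8.42, 8.77 and 10.2 CPM in K5-RANKL libraries. It rose by 1.09 (SE 0.17, edgeR adjusted p = 2.92e-05) and ranged from 0.89 to 1.27 over the alternatives other than library totals.

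Set per length, as CPM per kilobase of annotated exon, the order of the subunit genes changed between groups. In controls Rela was the highest of the 5 at 11.1 ± 0.654 and Relb stood at 2.59 ± 0.262, while in K5-RANKL glands Nfkb2 was the highest at 27.9 ± 2.78, followed by Relb at 18.3 ± 1.28 and Rela at 17.7 ± 0.51 (SD, n = 3 each), of which Relb and Rela did not differ beyond their spread. Nfkb1 stood at 4.50 ± 0.416 and 8.03 ± 0.737 and Rel at 0.568 ± 0.154 and 1.22 ± 0.126 by the same measure. The place of Nfkb1 depends on the length used. With the longest annotated transcript in place of all exons it stood at 13.1 and 23.3 CPM per kilobase, above Rela in both groups. By that length Nfkb1 was the highest of the 5 in controls. In K5-RANKL glands it lay above Relb, at 21.7, and below Nfkb2, at 33.3.

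Of the 7 kinase genes 4 rose and 3 did not pass, where 34.2% of all genes rose. Map3k14, encoding NIK, which starts the noncanonical route (chromosome 11 from 103219764 to 103267401), stood at 5.07, 4.61 and 5.94 CPM in controls and at 25.9, 21.1 and 23.8 CPM in K5-RANKL libraries, a rise of 2.17 (SE 0.13, edgeR adjusted p = 1.18e-10). Chuk, encoding IKK-alpha, through which NIK acts (chromosome 19 from 44073334 to 44107505), stood at 43.1, 40.7 and 37.2 CPM and at 33.8, 34.8 and 37.9 CPM, with overlapping groups and a log2 fold change of −0.18 (SE 0.08, edgeR adjusted p = 0.0627). It passed as lower without control 3, at −0.24, and with upper-quartile scaling, at −0.20. Of the 4 genes of the noncanonical core, Nfkb2, Relb and Map3k14 rose 5.02-fold, 7.06-fold and 4.50-fold, and Chuk did not pass.

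Ikbkb, encoding IKK-beta, the canonical kinase (chromosome 8 from 22659205 to 22706589), went from 31.2, 32.9 and 31.6 CPM to 50.4, 45.3 and 48.6 CPM, a rise of 0.59 (SE 0.08, edgeR adjusted p = 3.25e-06). Ikbkg, encoding NEMO, the regulatory subunit of the canonical IKK complex (X chromosome from 74393233 to 74456792), stood at 31.1, 33.6 and 34.6 CPM in controls against 33.4, 33.6 and 33.4 CPM in K5-RANKL libraries (log2 fold change 0.02, SE 0.08, edgeR adjusted p = 0.874). The NEMO groups lay on top of each other. Map3k7, encoding TAK1, which phosphorylates IKK-beta, stood at 47.8 ± 1.95 and 45.3 ± 0.575 CPM (SD, n = 3 each; log2 fold change −0.08, edgeR adjusted p = 0.351). The IKK-related kinases TBK1 and IKK-epsilon act mainly in antiviral signalling and bind TANK. Ikbke, encoding IKK-epsilon, stood at 4.97, 5.79 and 5.32 CPM in controls against 20.1, 16.2 and 19.6 CPM in K5-RANKL libraries and rose by 1.80 (SE 0.13, edgeR adjusted p = 1.54e-09). Tbk1 rose by 0.25, a call that was lost with DESeq2 and without control 1, control 3 or K5-RANKL 3, with adjusted p up to 0.0892.

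**Figure D3:**
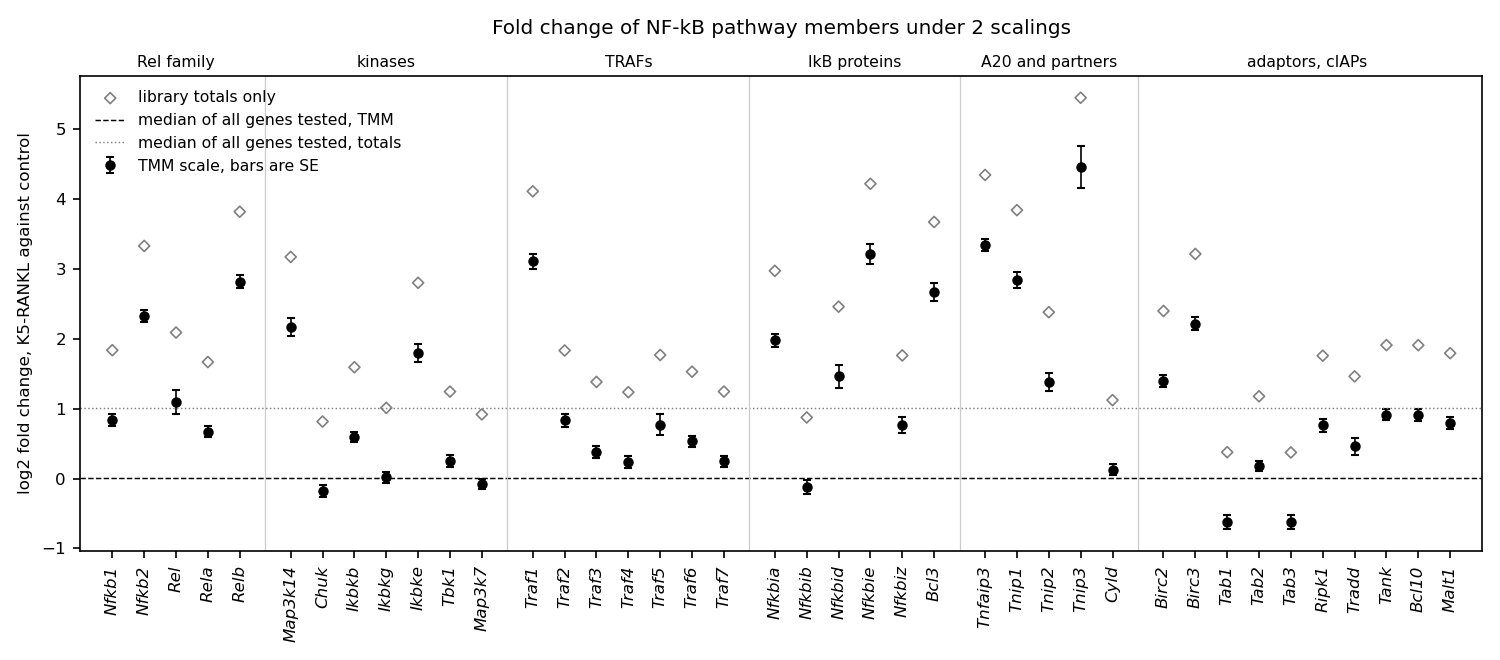
Log2 fold change of the 40 members, K5-RANKL against control; filled points are the TMM scale with SE bars and open diamonds are library totals only. The dashed and dotted lines are the medians of all genes under each scaling, 0.01 and 1.01, and Tab1 and Tab3 lie below both medians.

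Because both genes of a pair are read in the same library, their ratio does not depend on how libraries are scaled, and 4 pairs were compared this way. The count of Nfkb2 was 0.474, 0.511 and 0.434 times that of Nfkb1 in controls and 1.32, 1.30 and 1.34 times in K5-RANKL libraries. The ratio was higher by 1.49 on the log2 scale (SE 0.07, 2.80-fold). Relb was at 0.274, 0.30 and 0.315 times the count of Rela in controls and 1.35, 1.21 and 1.37 times in K5-RANKL libraries, higher by 2.15 (SE 0.08, 4.43-fold). In both subunit pairs the noncanonical gene had fewer counts than its counterpart in every control and more in every K5-RANKL library. Counts carry gene length, so this crossing does not show which gene had the higher level. Per kilobase of exon, Nfkb2 averaged 5.57 against 4.50 for Nfkb1 in controls, and by the longest transcript 6.63 against 13.1. In K5-RANKL 2, Relb stood at 16.94 per kilobase of exon and Rela at 17.65. Length cancels in the difference between groups. Map3k14 was at 0.109, 0.10 and 0.119 times the count of Map3k7 in controls and 0.57, 0.462 and 0.532 times in K5-RANKL libraries, higher by 2.25 (SE 0.12). The ratio of Chuk to Ikbkb went the other way, from 1.38, 1.24 and 1.18 to 0.671, 0.768 and 0.78, a log2 difference of −0.77 (SE 0.10). The groups did not overlap in any of the 4 pairs, and each exact two-sided permutation test gave p = 0.1, the smallest that 3 against 3 libraries allow (0.1 after adjustment over the 4).

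**Figure D4:**
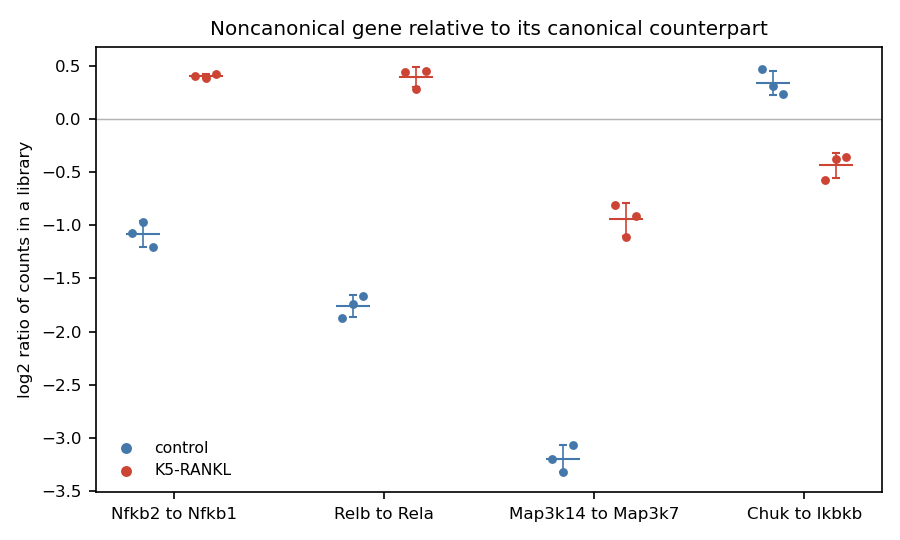
Log2 ratio of the counts of 2 genes within a library (y axis) for 4 pairs. Each sets a gene of the noncanonical core against a gene that acts in the canonical route, of which Map3k7 is outside the canonical core used here. Points are libraries, bars are group means with SD (n = 3). The first 3 pairs are higher in K5-RANKL libraries and Chuk to Ikbkb is lower, by 0.77 on the log2 scale.

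All 7 TRAF genes rose, where 34.2% of all genes were called higher, with fold changes that differed widely. Traf1, which encodes an adaptor that joins TRAF2 at receptors and is itself inducible by NF-kB (chromosome 2 from 34941750 to 34961812), stood at 7.0, 6.38 and 5.63 CPM in controls against 57.9, 49.8 and 55.7 CPM in K5-RANKL libraries, a rise of 3.11 (SE 0.11, edgeR adjusted p = 2.02e-13). The other six rose by 0.24 to 0.83. Traf2 and Traf3, whose products hold NIK at low levels with the cIAP proteins, rose by 0.83 and 0.38. Traf6, encoding the adaptor that RANK uses to reach the canonical route, rose by 0.53 from 32.9 ± 1.99 to 47.6 ± 1.14 CPM (SD, n = 3 each), and Traf5, an adaptor of CD40 and related receptors, by 0.77. The rises of Traf4 and Traf7 were 0.24 and 0.25, above 62.7% and 63.1% of the fold changes of all genes. The call of Traf4 was lost with DESeq2 and without K5-RANKL 2, at adjusted p = 0.0753 and 0.0764.

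The cIAP ubiquitin ligases, partners of TRAF2 and TRAF3 in the degradation of NIK, rose as well. Birc3, encoding cIAP2, stood at 13.6, 18.1 and 16.6 CPM in controls against 74.95, 70.2 and 79.8 CPM in K5-RANKL libraries and rose by 2.22 (SE 0.10, edgeR adjusted p = 3.53e-12). Birc2, encoding cIAP1, stood at 33.3, 30.6 and 31.4 CPM and at 87.7, 76.4 and 86.9 CPM and rose by 1.40 (SE 0.08, edgeR adjusted p = 1.22e-10). These paralogs are neighbours on chromosome 9 (Birc2 from 7818226 to 7837131, Birc3 from 7847468 to 7873205), and how reads shared between them were counted is not given in the sources used here.

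The inhibitors of the IkB family, which bind NF-kB dimers through ankyrin repeats, rose with 1 exception, where 34.2% of all genes rose. Nfkbia, encoding IkB-alpha, the classical feedback inhibitor (chromosome 12 from 55489409 to 55492647), stood at 52.5, 50.3 and 40.3 CPM in controls against 184, 193 and 185 CPM in K5-RANKL libraries, a rise of 1.98 (SE 0.09, edgeR adjusted p = 5.47e-12). Per kilobase of exon it was the highest of the 40 members in both groups. Nfkbie, encoding IkB-epsilon, another cytoplasmic inhibitor (chromosome 17 from 45555700 to 45563169), rose further, by 3.22 (SE 0.14, edgeR adjusted p = 2.78e-10), from 6.54, 7.85 and 6.10 CPM to 72.6, 51.8 and 64.7 CPM. Nfkbib, encoding IkB-beta, stood at 13.8 ± 0.354 CPM in controls (SD, n = 3) against 12.6 ± 0.56 CPM (SD, n = 3), with a log2 fold change of −0.13 (SE 0.10, edgeR adjusted p = 0.286). Exons of Ccer2 and Sirt2 on the opposite strand overlap 16.4% of the exonic length of Nfkbib.

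The nuclear members of the IkB family act as cofactors of p50 and p52 rather than as cytoplasmic anchors. Bcl3, which encodes the cofactor that binds p50 and p52 dimers, stood at 6.91, 5.89 and 5.94 CPM in controls against 42.2, 33.4 and 43.3 CPM in K5-RANKL libraries, and rose by 2.67 (SE 0.13, edgeR adjusted p = 1.00e-11). Nfkbid, encoding IkBNS, stood at 3.41, 3.73 and 2.58 CPM and at 9.08, 8.45 and 8.99 CPM, a rise of 1.46 (SE 0.16, edgeR adjusted p = 3.91e-07). Nfkbiz, encoding IkB-zeta, a cofactor for secondary inflammatory genes, rose by 0.76 from 10.01 ± 1.51 to 16.9 ± 0.573 CPM (SD, n = 3 each).

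The ubiquitin editor A20 and the proteins that bind it held the 2 highest fold changes of the 40, those of Tnip3 and Tnfaip3. Tnfaip3, encoding A20, which removes activating ubiquitin chains (chromosome 10 from 19000910 to 19015410), stood at 11.1, 10.8 and 10.4 CPM in controls against 115, 107 and 107 CPM in K5-RANKL libraries, a rise of 3.35 (SE 0.09, edgeR adjusted p = 6.14e-15). Tnip1, encoding the A20 partner ABIN-1 (chromosome 11 from 54910787 to 54962956), stood at 12.2, 16.7 and 15.9 CPM and at 118, 97.2 and 106 CPM, a rise of 2.84 (SE 0.11, edgeR adjusted p = 2.31e-12). Neither gene's groups overlapped. Tnip3, encoding ABIN-3, was barely detected in controls, with 5, 4 and 4 counts (0.46, 0.392 and 0.313 CPM), and had 254, 120 and 187 counts in K5-RANKL libraries (10.5, 6.42 and 8.71 CPM). It rose by 4.46 (SE 0.30, edgeR adjusted p = 8.84e-10), above 98.8% of the fold changes of all genes, a size that rests on 13 control counts. Tnip3 passed the filter through its K5-RANKL counts. Tnip2, encoding ABIN-2, stood at 8.20, 9.71 and 7.82 CPM and at 24.7, 18.8 and 23.0 CPM and rose by 1.38 (SE 0.13, edgeR adjusted p = 3.51e-08). Cyld, the tumour suppressor deubiquitinase that acts beside A20, did not pass, at 55.1 ± 3.11 and 60.1 ± 2.18 CPM (SD, n = 3 each; log2 fold change 0.13, edgeR adjusted p = 0.145).

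The TAK1 binding proteins held the only 2 members that fell. Tab1, which activates TAK1 (chromosome 15 from 80133127 to 80161707), stood at 22.6, 20.01 and 24.9 CPM in controls against 15.01, 13.8 and 15.1 CPM in K5-RANKL libraries, and fell by 0.62 (SE 0.10, edgeR adjusted p = 3.0e-05). Tab3, one of the pair of subunits that tether TAK1 to ubiquitin chains (X chromosome from 85573854 to 85634469), stood at 20.4, 21.7 and 20.6 CPM and at 12.3, 13.3 and 15.04 CPM, and also fell by 0.62 (SE 0.10, edgeR adjusted p = 3.15e-05). By library totals both were called higher, by 0.38 and 0.37, which is below the median of 1.01 of all genes on that scale. Tab2, the paralog of Tab3, had more counts than both, at 89.6 ± 6.51 and 102 ± 1.81 CPM (SD, n = 3 each). Its rise of 0.18 was called (edgeR adjusted p = 0.0388), and the call was lost under 7 alternatives, among them DESeq2, upper-quartile scaling and leaving out any library but control 3.

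The remaining adaptors rose by less than 2-fold. Bcl10 and Malt1, which pass signals of CARD proteins to IKK, rose by 0.91 and 0.80. Tank, encoding a TRAF-binding regulator of TBK1, rose by 0.91 from 28.6 ± 1.07 to 53.9 ± 1.70 CPM (SD, n = 3 each). Ripk1 and Tradd, which assemble the TNF receptor complex, rose by 0.76 and 0.46.

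K5-RANKL 1 held the highest value of its group for 22 of the 40 members, and for 34.8% of all genes tested. K5-RANKL 2 held the lowest value of its group for 24 of the 40 members, and for 36.0% of all genes tested, and its median difference from the other K5-RANKL libraries was −0.08 log2 over the members. It was also lowest in Tnfsf11 and in the summed basal and myoepithelial markers, at 660 CPM against 1174 and 1120 CPM; the part of this in the member values was not tested. Without K5-RANKL 2, 31 members were called higher and 2 lower.

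Genes around the members were grouped in 6 lists, in which genes are ranked in CPM, not per length, by the mean of both groups. For comparison, 34.2% of all genes tested were called higher and 32.1% lower. Of 13 tested ligands of receptors that activate NF-kB, 11 rose and 0 fell, with a median log2 fold change of 1.25. Besides Tnfsf11, which the transgene encodes, they include the alarmin gene Il33, which rose by 1.67 (SE 0.10) from 14.7 ± 2.34 to 46.5 ± 1.45 CPM, and Il1b, which rose by 3.25 (SE 0.28) from 0.693 ± 0.379 to 6.76 ± 1.15 CPM (SD, n = 3 each). The ligand genes Il1b, Tnf, Il1a, Tnfsf14, Cd40lg and Tnfsf9 had 3 to 13 counts in each control library and passed the filter through their K5-RANKL counts. Among 23 receptors 21 rose, 1 fell and 1 missed the threshold, with a median of 1.00. Tnfrsf8, Edar and Tlr5, all called higher, passed the filter through their K5-RANKL counts. Tnfrsf11a, encoding RANK, rose by 2.55 (SE 0.11), and Tnfrsf1b, encoding the second TNF receptor, by 2.62 (SE 0.10) from 16.3 ± 2.62 to 100.1 ± 3.68 CPM. Tnfrsf1a, the highest receptor gene by that mean, rose by 0.39. The exception was Ltbr, the lymphotoxin-beta receptor gene, named after its value was seen: it fell by 0.25 (edgeR adjusted p = 0.00802), a call lost without K5-RANKL 3.

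Of 14 genes serving Toll-like, interleukin-1 and interleukin-17 receptors, 6 rose, 6 fell and 2 missed the threshold, with a median log2 fold change of 0.05, near the 34.2% higher, 32.1% lower and median of 0.01 of all genes. Ticam2, encoding TRAM, the adaptor that links TLR4 to TRIF, rose by 2.67 (SE 0.26) and Traf3ip2, encoding the interleukin-17 receptor adaptor Act1, fell by 0.90 (SE 0.09) from 26.7 ± 0.751 to 14.3 ± 0.504 CPM. Ticam2 had 5, 9 and 20 counts in controls and passed the filter through its K5-RANKL counts. Irak1, the highest of them by that mean, fell by 0.57 from 157 ± 7.83 to 105.5 ± 3.0 CPM (SD, n = 3 each). Of 16 CARD and linear ubiquitin genes 7 rose, 3 fell and 6 missed the threshold; the median log2 fold change was 0.08. Among those that rose, Card9 passed the filter through its K5-RANKL counts. Nod2, an intracellular sensor of bacterial peptidoglycan, rose by 3.13 (SE 0.16), and Tax1bp1, an A20 cofactor and the highest by that mean, fell by 0.17 (edgeR adjusted p = 0.047), a call lost under 7 alternatives. By library totals no gene of either list was called lower, with 13 and 15 called higher. On that scale 83.5% of all genes were called higher and 4.97% lower.

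Of 24 tested genes listed as inflammatory NF-kB targets, 22 rose, 1 fell and 1 missed the threshold, with a median log2 fold change of 3.05. Among all genes tested, 34.2% rose and 32.1% fell. Some targets had few counts in controls, among them Ccl20 with 12, 3 and 2. Ccl20, Ccl2, Cxcl1, Il23a, Ptgs2, Nos2, Saa3 and Ptx3 passed the filter through their K5-RANKL counts. All of these were called higher, and the median includes them. The chemokine gene Ccl20 was the highest by that mean, at 395 ± 28.1 CPM in K5-RANKL glands, and the adhesion molecule gene Icam1 rose by 3.51 (SE 0.11) from 15.02 ± 2.0 to 172 ± 16.5 CPM (SD, n = 3 each). Tnfaip2, which had the smallest p of this list, rose by 5.57. Sod2, encoding mitochondrial superoxide dismutase, was the 1 that fell, by 0.89 (SE 0.08) from 117 ± 7.05 to 63.3 ± 6.26 CPM; it was named after its value was seen. Of 12 tested genes linked to lymphoid organ formation and the noncanonical route, 11 rose and 0 fell, with a median of 1.16. Among those that rose, Madcam1 and Chst4 passed the filter through their K5-RANKL counts. Ccl22, a chemokine gene of dendritic cells, rose by 2.82 (SE 0.10) from 8.16 ± 0.568 to 57.95 ± 5.38 CPM, and Spib, an Ets factor gene of B cells and microfold cells, by 5.02. These lists were drawn up with earlier results of these data known, so their counts are descriptions.

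Several members are typical of immune cells, whose markers also differed between groups. The marker counts below stand beside 34.2% of all genes tested that rose and 32.1% that fell. Summed macrophage and monocyte markers ran from 209 to 236 CPM in controls and from 1126 to 1162 CPM in K5-RANKL libraries, and all 8 tested rose, led by C1qa (2.77). Dendritic cell markers ran from 30.9 to 35.0 and from 123 to 133 CPM, with 7 of 7 rising, Itgax by 2.55. Among them Clec9a passed the filter through its K5-RANKL counts. T cell markers ran from 90.6 to 94.4 and from 187 to 201 CPM, with 8 of 9 rising, Cd4 by 1.5 and Lck by 0.94. B cell markers ran from 143 to 154 and from 160 to 179 CPM, with 2 of 8 rising (Ms4a1 by 0.31 and Cd22 by 0.39); Cd79a did not pass at 0.16. The defining B cell gene Pax5 stood at 5.25 ± 0.305 and 4.77 ± 0.456 CPM (SD, n = 3 each). The part of immune cells in the member values was not tested.

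Neutrophil markers ran from 2.58 to 4.77 and from 11.9 to 14.3 CPM, with all 4 tested rising, among them Csf3r by 2.23, and Mpo and Camp had too few counts to test. S100a8, S100a9 and Cxcr2 passed the filter through their K5-RANKL counts. Natural killer cell markers ran from 10.7 to 15.3 and from 18.5 to 20.2 CPM (3 of 6 rose, Klrb1c by 1.23, and 1 fell). Plasma cell markers ran from 46.7 to 50.3 and from 78.0 to 86.8 CPM. Of the 4 tested, 3 rose, Prdm1 by 1.73, Sdc1 by 0.85 and Irf4 by 0.59, and Mzb1 did not pass, at 0.14. Sdc1 held most of the plasma cell sum, with group means of 26.5 and 47.9 CPM. Tnfrsf17 had too few counts to test, and its groups overlapped (control mean 0.679 CPM, K5-RANKL mean 0.375 CPM). No listed immune marker was at 0 counts in all controls.

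In tissue cells, fibroblast markers ran from 574.5 to 776 and from 2674 to 3133 CPM, with 6 of 7 rising, Col3a1 by 3.13 and Pdgfrb by 1.40. Col1a1, Col1a2 and Col3a1 held most of the K5-RANKL sum, at group means of 498, 637 and 1356 CPM. Pdgfra and Lum rose by 0.69 and 0.28, and Dcn did not pass, at −0.12. Endothelial markers ran from 140 to 162 and from 158.5 to 166 CPM, with 2 of 7 rising, Pecam1 by 0.37 and Cdh5 by 0.44, and 2 falling. Acinar markers ran from 631900 to 713000 and from 116700 to 170200 CPM, with Dcpp3 falling by 6.64 and Spt1 by 1.94. Spt1 held most of the acinar sum, at group means of 436700 and 113800 CPM. Duct markers ran from 22200 to 23990 and from 7268 to 9359 CPM, with 7 of 10 falling, Klk1 by 1.56, and 3 rising. Klk1 held most of the duct sum, at group means of 21370 and 7231 CPM. The 3 that rose were keratin genes, Krt19 by 2.61, Krt8 by 1.11 and Krt18 by 0.18. Basal and myoepithelial markers ran from 392 to 403 and from 660 to 1174 CPM, with 4 of 8 rising, Krt5 by 3.03, and 3 falling, Cnn1 by 1.21. The part of these cell types in the member values was not tested either.

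**Figure D5:**
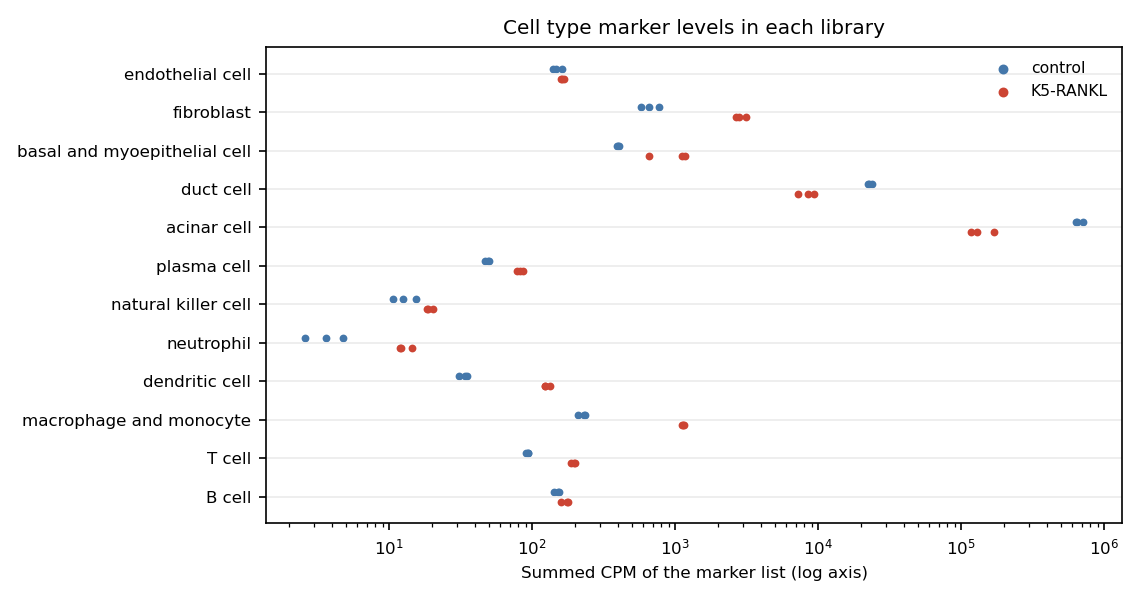
Summed CPM of 12 cell type marker lists (x axis, log) with 1 point for each of the 6 libraries, 3 per group. Macrophage and monocyte markers sit at 209 to 236 CPM in controls and 1126 to 1162 CPM in K5-RANKL libraries, and acinar markers sit lower in every K5-RANKL library than in any control.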

How the data were processed

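The members, arms and lists were chosen with earlier results of these data known. Raw counts per gene were deposited by the authors in 1 table. Reads were aligned with STAR to mm10, per the submitters' processing notes; the counting tool, annotation and strand setting were not given in the sources used here. Each replicate is a pool from 5 animals, and p-values measure only how pools vary. Libraries of a group differed by 6.26 to 38.3 in chi-square per gene, above sampling noise, so none was a copy of another.

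Genes passing edgeR's filterByExpr (minimum count 10) were scaled by TMM and tested with the robust quasi-likelihood F-test, two-sided, with Benjamini-Hochberg adjustment over all 14044 genes and a threshold of 0.05. SE was taken as the absolute log2 fold change over root F. The pair ratios used counts with 0.5 added. Exon lengths came from GENCODE M21 and gene positions from RefSeq GRCm38.p6, the assembly behind mm10. A total of 4 list symbols (Fdcsp, Adgre1, Ly6g, Jchain) were not matched and were not used. A count of 0 allowed up to 0.124 to 0.294 CPM, from 3 counts, which covers counting error only. The genes described in full are the core of both arms, members that rose at least 2-fold and members that fell; of each list, the called members with the smallest p and the one highest in mean CPM over both groups; 1 gene that this rule names is not reported here. Alternatives were RLE, upper-quartile and library-total scaling, TMM without the 20 most abundant genes, DESeq2, voom with and without quality weights, other count filters and leaving out each library. Versions were DESeq2 1.42.0, limma 3.58.1, edgeR 4.0.16 and R 4.3.3.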

Additional observations from a re-analysis of the deposited data

How the results depend on the processing

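Of 600 alternative values of the 40 members' fold changes, 576 kept their direction and their side of the threshold. Directions turned by library totals for Tab1 (0.38), Tab3 (0.37), Chuk (0.82), Map3k7 (0.92) and Nfkbib (0.87), and for the listed genes Traf3ip2 (0.10), Irak1 (0.42) and Tax1bp1 (0.83); the cause lies in the scaling, which moves all genes by about 1. Ikbkg turned with upper-quartile scaling (−0.0002) and without control 1; leaving out 1 library gave −0.0293 to 0.0448, none of it called. By library totals 40 members were called higher, 35 of them at least 2-fold, and 0 lower. The receptors, the Toll and interleukin adaptors, the CARD and linear ubiquitin genes and the inflammatory targets had 0 called lower. Of the adaptor and CARD lists 13 and 15 were called higher. Among all genes 83.5% were called higher on that scale and 4.97% lower. With at least 50 counts in 3 libraries 7 ligands were called higher, because fewer genes were tested. Leaving out 1 library gave 31 to 32 members called higher, 15 to 16 at least 2-fold and 2 to 3 lower. It gave 8 to 11 ligands and 18 to 21 receptors higher, 0 to 1 receptors lower (0 without K5-RANKL 3), and 1 to 4 CARD and linear ubiquitin genes lower (1 without K5-RANKL 1); the cause was not tested beyond there being fewer libraries. DESeq2 called 30 members higher. Leaving out 1 library, the pair ratios ranged from 1.43 to 1.54 for Nfkb2 to Nfkb1, 2.09 to 2.20 for Relb to Rela, 2.18 to 2.33 for Map3k14 to Map3k7 and −0.82 to −0.71 for Chuk to Ikbkb; with 5 added to each count Map3k14 to Map3k7 was 2.16. By the longest transcript, control and K5-RANKL levels were 13.1 and 23.3 CPM per kilobase for Nfkb1, 6.63 and 33.3 for Nfkb2, 12.6 and 19.97 for Rela and 3.08 and 21.7 for Relb. With only the upstream part of the promoter, 39.4% of members had a kB match. No paired analysis was possible because the labels give no replicate numbers that pair libraries. With 3 libraries a group the exact test cannot go below 0.1, and Tnip3 is limited by its few control counts.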
